A study of Mus musculus with 12 samples.

Results

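Cytokine receptors set how a naive CD4 T cell reads the survival and differentiation signals around it. The transcripts of 8 receptor chains, Il7r, Il2rb, Il2rg, Il4ra, Il6ra, Il6st, Il10ra and Ifngr1, were followed by gene symbol through RNA-seq libraries of sorted mouse naive CD4 T cells. All 8 were among the 10073 genes of the deposited table, and all 8 were among the 10021 whose RPKM, averaged over the 12 libraries, reached 0.5. RPKM counts reads per kilobase of gene and per M reads (M, mega), so that levels of genes of different length can be set side by side. The 12 libraries were 4 populations from each of 3 untreated mice, and a library is named by population and mouse number, so that D1 is population D of mouse 1. Cells were CD4 positive, negative for a Foxp3 red fluorescent reporter and low in CD44, from spleen and lymph nodes. By its label, population D was Nur77-GFP high and Ly6C negative, C was GFP intermediate and Ly6C negative, B was GFP intermediate and Ly6C positive, and A was GFP low and Ly6C positive. All 4 populations came from the same kind of mouse, with the Tg(Nr4a1-EGFP)GY139Gsat transgene and the Foxp3tm1Flv targeted mutation on C57/BL6. The GFP transgene is driven by regulatory sequence of Nr4a1, an immediate early gene induced by the T cell receptor, so GFP is used as a reading of recent receptor signal. The gates were set on protein, whereas the libraries measure RNA.

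Most of these chains belong to the type I cytokine receptors, which have no enzyme activity of their own and signal through bound JAK kinases to STAT factors. They work as shared parts. The common gamma chain encoded by Il2rg pairs with the IL-7 receptor alpha chain, with the IL-4 receptor alpha chain and with the IL-2 receptor beta chain, and gp130, encoded by Il6st, pairs with the IL-6 receptor alpha chain. In naive T cells IL-7 sustains survival, and IL-6, IL-4, interferon gamma and IL-2 steer the choice of effector fate once the cell is activated.

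The libraries did not follow their labels in the transcripts of either sort marker, so the groups are called the libraries labelled D, C, B and A. Nr4a1 stood at 58.7 to 67.8 RPKM in D and 23.4 to 28.3 RPKM in C, whereas B1 held 36.0 RPKM against 73.3 and 64.6 RPKM in B2 and B3, and A1 held 57.7 RPKM against 26.1 and 22.9 RPKM in A2 and A3. Within mouse 1 the order of B and A was therefore opposite to that of mice 2 and 3. C, labelled GFP intermediate, was near A2 and A3, labelled GFP low, and B2 and B3, labelled GFP intermediate, were near D, labelled GFP high. Ly6c1, one of the genes that encode Ly6C, averaged 43.7 ± 5.10 RPKM in D, 64.3 ± 4.36 RPKM in C, 43.9 ± 6.53 RPKM in B and 64.6 ± 7.40 RPKM in A (SD, n = 3 each). All 3 C libraries, labelled Ly6C negative, lay above all 3 B libraries, labelled Ly6C positive, which is opposite to those labels, and B was at the level of D. Whether labels of libraries had been exchanged was not tested, and every direction below is between libraries as labelled. Mouse numbers are also those of the labels, and the red cell marker Hbb-bs did not follow them across populations. Differences by mouse therefore hold only as far as these numbers do. C3 held 709 RPKM of Jchain, an antibody chain of plasma cells, against 0.515 to 6.33 RPKM in the other libraries. It also held 209 RPKM of Cd74, a B cell marker, and 17.0 RPKM of Mki67, a proliferation marker. The other libraries held at most 19.7 RPKM of Cd74 and 3.27 RPKM of Mki67. C3 was kept as 1 of the 3 C libraries unless stated. Cd4 (224 to 250 RPKM) and Cd3e (268 to 294 RPKM) were high in every library, and 28 of 60 markers fixed for this and other cell types were not listed in the table. A library held between 6.31 (A3) and 9.07 (C1) M reads, a depth worked out from the steps in its RPKM values.

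All 8 chains were measured in every library, over a wide range of levels. Il2rg was the most abundant, at a mean of 235 RPKM over the 12 libraries, higher than 98.5% of the genes tested. Il7r (115 RPKM), Il6ra (101 RPKM), Il6st (92.1 RPKM), Il4ra (55.9 RPKM) and Ifngr1 (39.9 RPKM) followed, all above the median gene at 12.9 RPKM. Il2rb averaged 19.6 RPKM, and Il10ra, at 7.99 RPKM, was the member with the lowest level and lay below the median gene. Of 20 other listed cytokine receptor chains, 10 had a higher mean than Il2rb and 7 a lower mean than Il10ra. The lowest read number behind any member's value was 111, for Il2rb in A3, and Il10ra rested on 150 to 302 reads.

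**Figure D1:**
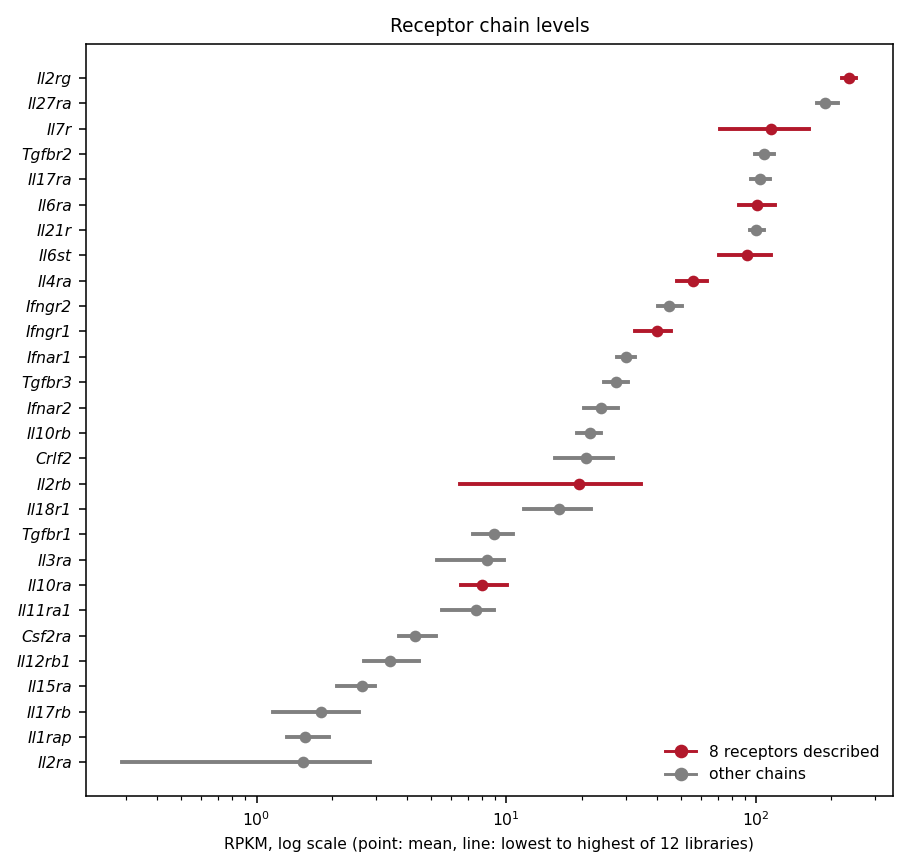
Level of the 8 receptor chains (red) and of 20 other listed cytokine receptor chains (grey) in RPKM on a log axis, with a point for the mean of 12 libraries and a line from the lowest to the highest library. Il2rg stands at the top with a mean of 235 RPKM and a short line, while the line of Il2rb runs between 6.53 and 34.6 RPKM.

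The members also differed in how much they varied. The SD of log2(RPKM + 0.5) over the 12 libraries was 1.04 for Il2rb, larger than that of 99.7% of the genes tested, with a 5.31-fold span between the highest and the lowest library. Il7r (SD 0.44, 2.26-fold span) and Il6st (SD 0.30, 1.62-fold span) varied more than 97.8% and 94.4% of genes. Il10ra had an SD of 0.23. Il6ra (0.17), Il4ra (0.14) and Ifngr1 (0.14) lay closer to the median gene at 0.12, and Il2rg (0.06) varied less than 92.1% of genes, spanning 1.15-fold.

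Il7r (Entrez 16197) encodes the IL-7 receptor alpha chain, the chain that makes naive T cells responsive to the survival cytokine IL-7. Its promoter is shown because the control of Il7r in T cells by ETS, RUNX and FOXO factors is well studied. The sequence of 250 bases before to 50 bases after the start site is RefSeq's on GRCm38.p6, read 5′ to 3′ on the gene's strand. It was searched on both strands for the letters AGGAAG (ETS core), TGTGGT (RUNX), TGTTTAC (FOXO), AGGTGTGA (T-box) and TTCNNNGAA (STAT site, called GAS), and matches are in capitals.
Il7r (chr15:9529827-9530126, minus strand): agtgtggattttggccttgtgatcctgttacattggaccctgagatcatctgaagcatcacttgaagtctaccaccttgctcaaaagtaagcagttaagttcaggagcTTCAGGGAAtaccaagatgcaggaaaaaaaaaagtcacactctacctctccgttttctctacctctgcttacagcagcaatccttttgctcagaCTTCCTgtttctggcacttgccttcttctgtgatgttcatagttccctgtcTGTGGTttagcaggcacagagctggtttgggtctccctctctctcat
From left to right the capitals mark TTCAGGGAA at base -142 from the start site, CTTCCT, which is the ETS core on the opposite strand, at base -48, and TGTGGT at base 4. Of 32851 mouse promoters of the same length, 35.4% hold the ETS letters, 16.8% the RUNX letters and 8.3% the GAS letters. No match is therefore particular to Il7r. The FOXO letters (3.65% of promoters) and the T-box letters (1.28%) are not in this window. No matches overlapped, and nothing in these libraries measured binding.

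Il7r stood at 86.2, 77.5 and 81.7 RPKM in D1, D2 and D3, and at 148, 146 and 123 RPKM in C1, C2 and C3. In the libraries labelled Ly6C positive it stood at 131, 83.7 and 71.9 RPKM in B1, B2 and B3, and at 104, 162 and 162 RPKM in A1, A2 and A3. Every D library lay below every C library, while B and A overlapped, since B1 was among the high libraries and A1 lay between the high and the low ones. The log2 difference of D minus C was -0.78, -0.91 and -0.59 in mice 1, 2 and 3, and that of B minus A was 0.34 in mouse 1 against -0.95 and -1.16 in mice 2 and 3. The order of the population means was A, C, B, D from high to low, and neighbours in that order overlapped. In a bulk library, fewer cells that carry a transcript and less of it per cell cannot be told apart.

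Il2rb (Entrez 16185) encodes the beta chain that IL-2 and IL-15 receptors share. It stood at 30.9, 34.6 and 30.3 RPKM in D1, D2 and D3, and at 8.47, 8.17 and 7.02 RPKM in C1, C2 and C3. In B1, B2 and B3 it stood at 8.61, 32.2 and 32.0 RPKM, and in A1, A2 and A3 at 29.7, 7.10 and 6.53 RPKM. The 12 values fell into 6 high ones, D1 to D3, B2, B3 and A1, and 6 low ones, with nothing between 8.61 and 29.7 RPKM. D and C were apart by 1.81, 2.02 and 2.03 on the log2 scale in mice 1, 2 and 3, all with D higher. B minus A was -1.73 in mouse 1, against 2.10 and 2.21 in mice 2 and 3. The order of means was D, B, A, C, with overlap between neighbours.

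Regulatory T cells carry much IL-2 receptor, and the summed level of their markers was higher in the same 6 libraries as Il2rb. All 7 markers fixed for them were listed, and their summed level was 63.5 to 71.9 RPKM in D, 27.5 to 31.8 RPKM in C, 31.3 (B1) to 68.8 RPKM in B and 28.0 to 70.3 RPKM (A1) in A. In the fit of 12 libraries 0 of the 7 were called in any pairwise comparison. The share of all genes called there was 2.23% between B and A, and 0.00998% each for D against C, D against A and C against B. In the fit of D and C alone 6 of 7 were higher in D, where 3.35% of all genes were. Ctla4 (27.0 RPKM in D, 8.79 RPKM in C) and Tnfrsf18 (20.1 RPKM in D, 15.7 RPKM in C) made up the largest part of the sum, and Nrp1 overlapped, at 0.623 to 0.848 RPKM in D and 0.337 to 0.871 RPKM in C. Foxp3, their defining factor, averaged 3.67 ± 0.381 RPKM in D, 1.36 ± 0.0895 RPKM in C, 3.13 ± 1.41 RPKM in B and 2.15 ± 1.41 RPKM in A (SD, n = 3 each), although the gate took cells negative for the Foxp3 reporter. Of 8 natural killer and killer cell genes, whose cells also carry the beta chain, 2 were listed, and their sum was lower in D (22.0 to 22.7 RPKM) than in C (28.6 to 31.7 RPKM), with B at 16.9 to 28.3 and A at 31.0 to 33.3 RPKM. Of 8 memory or effector CD4 T cell genes 3 were listed. Their sum was 28.0 to 29.4 RPKM in D, 27.0 to 29.6 RPKM in C, 24.7 to 29.7 RPKM in B and 27.1 to 30.6 RPKM in A. Of these, Eomes was higher in D than in C, Il18r1 was lower, and Cd44 overlapped. The part of other cells in the Il2rb values was not tested.

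Il2rg (Entrez 16186), the common gamma chain, was near level. It averaged 225 ± 5.81 RPKM in D, 242 ± 9.93 RPKM in C, 237 ± 12.2 RPKM in B and 237 ± 7.93 RPKM in A (SD, n = 3 each). Its 12 values ran from 219.5 RPKM in D1 to 252 RPKM in C2, and although all 3 D libraries lay below all 3 C libraries, the log2 difference was -0.13, -0.13 and -0.05 by mouse. Il7r and Il2rb, whose products pair with it, spanned 2.26-fold and 5.31-fold.

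Il4ra (Entrez 16190) encodes the alpha chain that binds IL-4. It stood at 50.4, 53.8 and 51.3 RPKM in D1, D2 and D3, and at 62.8, 63.8 and 58.0 RPKM in C1, C2 and C3, with no overlap. B1, B2 and B3 held 62.0, 48.4 and 52.8 RPKM and A1, A2 and A3 held 50.1, 59.2 and 58.6 RPKM, which overlapped. Its 6 highest libraries were C1 to C3, B1, A2 and A3, the same 6 as for Il7r, Il2rg and Il6ra.

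**Figure D2:**
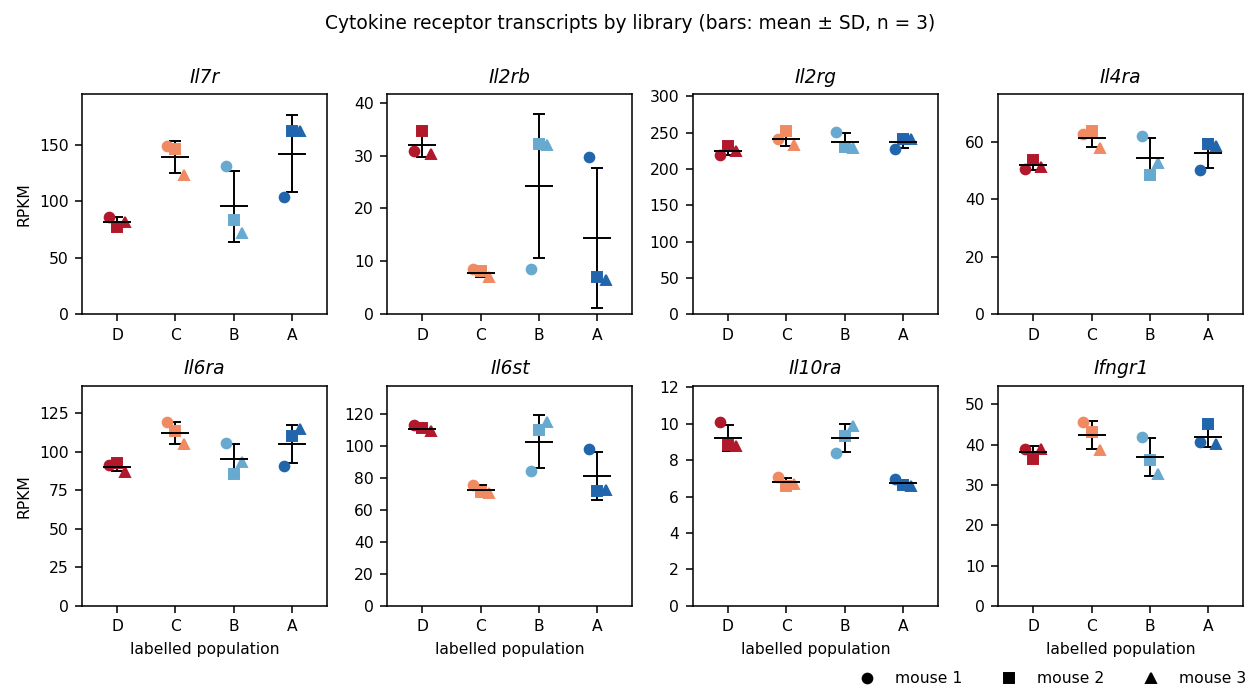
RPKM of each receptor chain by labelled population (D, C, B, A from left to right), with a circle, square and triangle for mice 1, 2 and 3, bars for mean ± SD (n = 3) and an axis from 0 for each gene. For Il2rb the libraries B1 (8.61 RPKM) and A1 (29.7 RPKM) lie on the other side from B2, B3, A2 and A3, while for Il10ra all 3 B libraries lie above all 3 A libraries.

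The IL-6 receptor needs both of its chains, and the transcripts of these chains went opposite ways. Il6ra (Entrez 16194) encodes the alpha chain that binds IL-6, and Il6st (Entrez 16195) encodes gp130, which carries the signal and serves other cytokines of the family too. Their promoters are shown because the levels of both transcripts were similar on average but opposite across libraries. Both are RefSeq's on GRCm38.p6, searched as above.
Il6ra (chr3:89913147-89913446, minus strand): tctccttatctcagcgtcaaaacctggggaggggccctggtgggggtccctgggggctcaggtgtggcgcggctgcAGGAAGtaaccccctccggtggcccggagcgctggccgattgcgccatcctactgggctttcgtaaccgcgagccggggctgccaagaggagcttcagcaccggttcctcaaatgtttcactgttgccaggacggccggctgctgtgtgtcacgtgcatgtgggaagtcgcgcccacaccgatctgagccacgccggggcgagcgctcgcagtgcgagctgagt
Il6st (chr13:112463820-112464119, plus strand): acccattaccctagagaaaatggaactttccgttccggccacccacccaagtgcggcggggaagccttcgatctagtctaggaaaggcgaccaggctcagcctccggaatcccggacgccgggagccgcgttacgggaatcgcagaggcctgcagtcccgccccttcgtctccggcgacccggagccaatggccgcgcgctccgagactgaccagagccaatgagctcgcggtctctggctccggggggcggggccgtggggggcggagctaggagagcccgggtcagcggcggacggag
The capitals in Il6ra mark the ETS letters at base -174. None of the 5 motifs is in the Il6st window, whose GC content is 68.3%, against 66.0% for Il6ra and 45.7% for Il7r. A match or its absence in these windows is a description and says nothing of a factor's binding.

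Il6ra stood at 91.4, 92.3 and 86.9 RPKM in D1, D2 and D3, and at 119, 114 and 105 RPKM in C1, C2 and C3. B1, B2 and B3 held 106, 85.7 and 93.3 RPKM, and A1, A2 and A3 held 90.9, 110.1 and 114 RPKM. D and C did not overlap, and B1 and A1 stood on the side of the other population's remaining libraries. Il6st had the mirrored order. It stood at 113, 111 and 109.5 RPKM in D1, D2 and D3 against 75.9, 71.4 and 71.0 RPKM in C1, C2 and C3, with B1, B2 and B3 at 84.4, 110.2 and 115 RPKM and A1, A2 and A3 at 98.5, 72.2 and 72.8 RPKM.

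Transcripts of the signalling chain exceeded those of the binding chain in 6 libraries and not in the other 6. The ratio of Il6st to Il6ra RPKM was 1.24, 1.21 and 1.26 in D1, D2 and D3, and 0.639, 0.629 and 0.676 in C1, C2 and C3. It was 0.799, 1.29 and 1.23 in B1, B2 and B3, and 1.08, 0.656 and 0.637 in A1, A2 and A3. The ratio of Il7r to Il2rb spread further, at 2.79, 2.24 and 2.70 in D, 17.5, 17.8 and 17.5 in C, 15.2, 2.60 and 2.24 in B, and 3.49, 22.8 and 24.8 in A. A ratio within a library shows unequal levels and not which of its parts moved.

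**Figure D3:**
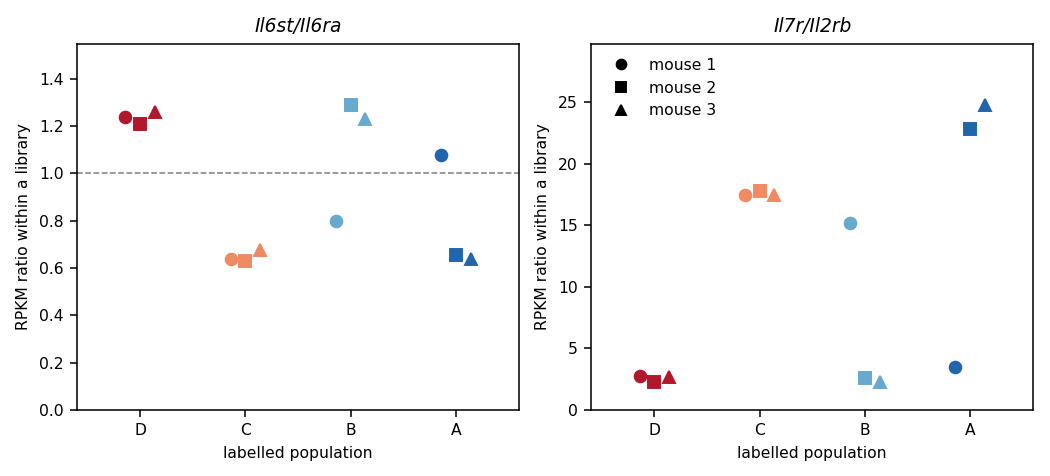
Ratio of Il6st to Il6ra RPKM and of Il7r to Il2rb RPKM in each library by labelled population (D, C, B, A from left to right), with a symbol per mouse, linear axes from 0 and a dashed line at a ratio of 1. Il6st exceeds Il6ra in D1 to D3, B2, B3 and A1 (1.08 to 1.29) and is below it in the other 6 libraries (0.629 to 0.799).

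Il10ra (Entrez 16154) encodes the ligand-binding chain for IL-10, a cytokine that restrains immune responses. It stood at 10.07, 8.83 and 8.79 RPKM in D1, D2 and D3, and at 7.06, 6.59 and 6.71 RPKM in C1, C2 and C3. B1, B2 and B3 held 8.37, 9.35 and 9.88 RPKM, and A1, A2 and A3 held 6.95, 6.64 and 6.59 RPKM. In contrast to Il2rb and Il6st, its 6 highest libraries were all of D and B, so that D lay above C and B above A in every mouse, mouse 1 included. B minus A was 0.25, 0.46 and 0.55 on the log2 scale in mice 1, 2 and 3, smallest in mouse 1. The order of means was D, B, C, A, with a gap between B and C and overlap between D and B and between C and A.

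Ifngr1 (Entrez 15979) encodes the ligand-binding chain of the interferon gamma receptor. It averaged 38.1 ± 1.43 RPKM in D, 42.4 ± 3.47 RPKM in C, 36.9 ± 4.75 RPKM in B and 42.0 ± 2.70 RPKM in A (SD, n = 3 each). D1, D2 and D3 held 38.9, 36.5 and 39.0 RPKM, which overlapped C3 at 38.6 RPKM but not C1 and C2 at 45.5 and 43.1 RPKM. In mouse 3 the log2 difference of D minus C was 0.01, against -0.22 and -0.24 in mice 1 and 2.

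D against C contrasts libraries labelled GFP high with those labelled GFP intermediate, both labelled Ly6C negative, although Ly6c1 was lower in D than in C in 3 of 3 mice (log2 difference -0.56 ± 0.09, adjusted p = 0.0102 in limma's fit of these 6 libraries and 0.106 in that of all 12). Il2rb was 3.88-fold and Il6st 1.53-fold higher in D, Il10ra was also higher, and Il7r was lower, at 0.591 times the level in C. Libraries of D and C did not overlap for 7 of 8 members, 3 higher and 4 lower in D, where 24.0% of the genes tested did not overlap, 14.1% higher and 9.89% lower. The test was limma's moderated test on log2(RPKM + 0.5) with Benjamini-Hochberg adjustment over all genes tested and a threshold of 0.05. In the fit of all 12 libraries no member was called, where 0.00998% of genes (1 gene) were. By that fit 6 members had an unadjusted p under 0.05, as 18.1% of genes did, and adjusted p ran from 0.106 to 0.396, with limma-voom on recovered reads also calling 0.

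That fit takes 1 spread from all 4 populations, and B and A were wider than D and C in members such as Il2rb, with SDs of 13.6 RPKM in B and 13.2 RPKM in A beside 2.35 RPKM in D and 0.764 RPKM in C. When the 6 libraries of D and C were fitted alone, 6 of 8 members passed, 3 higher and 3 lower, where 4.80% of genes did, 3.35% higher and 1.45% lower. Il2rb rose by 1.95 ± 0.09 on the log2 scale (± SE, adjusted p = 1.57e-05), Il6st by 0.61 ± 0.05 (adjusted p = 0.000199) and Il10ra by 0.42 ± 0.08 (adjusted p = 0.0262). Il7r fell, with a log2 difference of -0.76 ± 0.08 (adjusted p = 0.000963), as did Il6ra at -0.32 ± 0.06 (adjusted p = 0.0175) and Il4ra at -0.24 ± 0.05 (adjusted p = 0.0431). Il2rg (-0.10 ± 0.05, adjusted p = 0.288) and Ifngr1 (-0.15 ± 0.07, adjusted p = 0.302) did not pass in that fit. In the fit of 12 libraries the log2 differences were the same and the SE of Il2rb was 0.53 (adjusted p = 0.11). Without A1 and B1, libraries left out after their values were seen, the same 6 members passed in a fit of 10 libraries, where 7.63% of genes did, 5.05% higher and 2.58% lower in D.

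**Figure D4:**
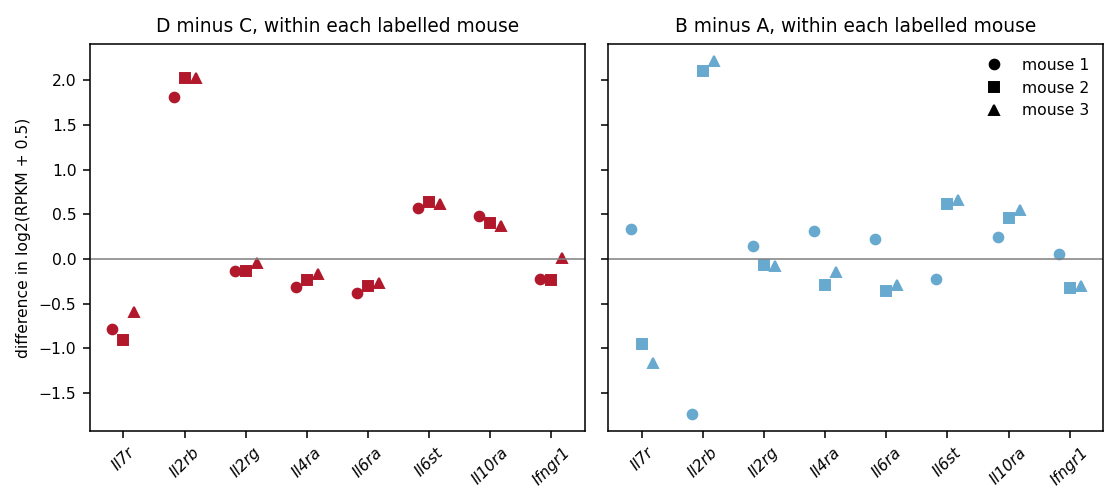
Difference in log2(RPKM + 0.5) of each receptor chain by mouse, D minus C and B minus A, with a line at 0. D minus C has 1 sign in 3 of 3 mice for 7 members, while B minus A in mouse 1 is opposite to mice 2 and 3 for Il2rb (-1.73 against 2.10 and 2.21), Il7r, Il6st, Il6ra, Il4ra, Il2rg and Ifngr1, and not for Il10ra.

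B against A contrasts libraries labelled GFP intermediate with those labelled GFP low, both labelled Ly6C positive, although Ly6c1 was lower in B than in A in 3 of 3 mice (log2 difference -0.55 ± 0.12, adjusted p = 0.0452 in limma's fit of 12 libraries). Il10ra was the only member whose libraries did not overlap, higher in B, where 29.2% of genes did not overlap, 13.4% with B higher. It was also the only member called in the fit of 12 libraries, where 2.23% of genes were, 0.569% higher. At an unadjusted p under 0.05 there were 4 members, and 23.1% of genes. Il10ra rose by 0.42 ± 0.08 on the log2 scale (1.34-fold, adjusted p = 0.0367, higher in B in 3 of 3 mice). With the labelled mouse as a block its adjusted p was 0.0575. After a correction of each library for transcript GC content and length, its log2 difference was 0.33 with an adjusted p of 0.153. Without A2, A3, B2, B3 or D2 its adjusted p was 0.139, 0.133, 0.105, 0.132 and 0.0612. The other 7 members did not pass, with log2 differences of -0.59 ± 0.20 for Il7r (adjusted p = 0.117), 0.86 ± 0.53 for Il2rb (adjusted p = 0.346) and 0.35 ± 0.12 for Il6st (adjusted p = 0.12).

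In the fit of B and A alone Il10ra was again the only member to pass (adjusted p = 0.0345), where 3.79% of genes did. Without A1 and B1 most members passed. Leaving these libraries out has no independent weight, since their values chose them. The fit keeps C1 and D1, which carry the same mouse number. In it 6 of 8 members passed between B and A, 3 higher and 3 lower. That fit called 10.9% of genes, 6.66% higher and 4.26% lower. Il2rb then rose by 2.16 ± 0.10 on the log2 scale (adjusted p = 1e-06), Il6st by 0.63 ± 0.05 (adjusted p = 3.24e-05) and Il10ra by 0.51 (adjusted p = 0.00635). Il7r then fell, at -1.06 ± 0.10 (adjusted p = 8.77e-05), as did Il6ra at -0.33 (adjusted p = 0.0127) and Ifngr1 at -0.31 ± 0.09 (adjusted p = 0.0462). Il4ra (adjusted p = 0.0518) and Il2rg (adjusted p = 0.361) did not pass.

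D against A contrasts libraries labelled GFP high and Ly6C negative with those labelled GFP low and Ly6C positive. C against B contrasts libraries labelled Ly6C negative with those labelled Ly6C positive, both labelled GFP intermediate, but the marker transcripts ran against those labels. Ly6c1 was higher in C than in B (log2 difference 0.55 ± 0.12, adjusted p = 0.271 in limma's fit of 12 libraries, and 0.65 ± 0.12, adjusted p = 0.00776 without A1 and B1), and Nr4a1 averaged 26.0 RPKM in C and 58.0 RPKM in B. D and A did not overlap for 5 members, Il2rb, Il6st and Il10ra higher and Il7r and Ifngr1 lower in D, where 25.8% of genes did not overlap, 14.1% higher and 11.7% lower. C and B did not overlap for 3 members, Il2rb, Il6st and Il10ra, all lower in C, where 15.1% of genes did not overlap, 8.83% lower in C. In the fit of 12 libraries no member was called in either comparison, where 0.00998% of genes were in each. At an unadjusted p under 0.05 there were 5 members for D against A (19.0% of genes) and 6 for C against B (13.4% of genes), and limma-voom called 0 in both. Fits of the 6 libraries compared alone called no member either, where 0.0299% of genes were called for D against A and 0.0% for C against B. Without A1 and B1, 5 members passed for D against A, 3 higher and 2 lower (8.84% of genes, 6.08% higher and 2.76% lower), with log2 differences of 2.15 for Il2rb, 0.62 for Il6st, 0.45 for Il10ra, -0.98 for Il7r and -0.31 for Il6ra. For C against B 7 members passed without those libraries, 4 higher and 3 lower (7.74% of genes, 2.76% higher and 4.98% lower), with log2 differences of 0.83 for Il7r, 0.33 for Il6ra, 0.30 for Ifngr1 and 0.28 for Il4ra, and of -0.47 for Il10ra, -0.63 for Il6st and -1.96 for Il2rb. These comparisons share libraries with D against C and B against A. As for B against A, counts here and below without A1 and B1 have no independent weight, since the values of these libraries chose them.

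**Figure D5:**
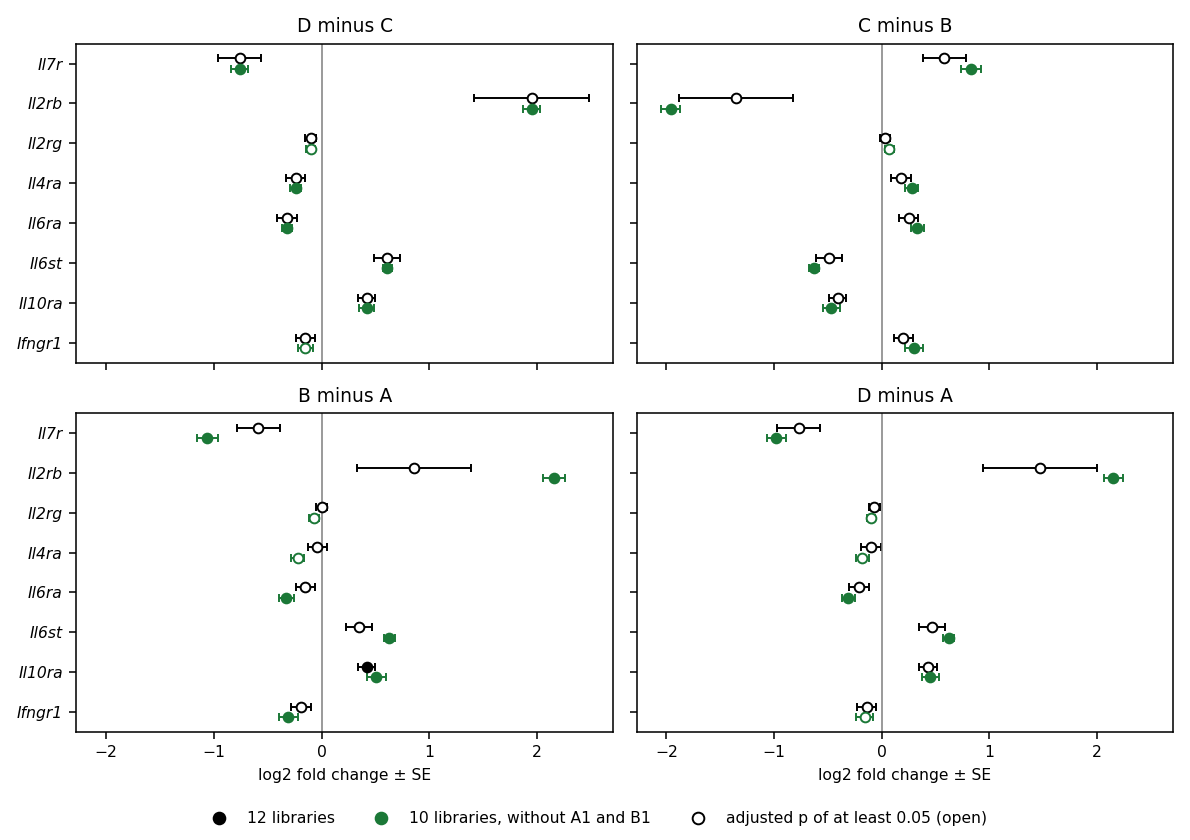
Log2 difference of each receptor chain, with bars for ± 1 SE, in the comparisons D vs C, B vs A, D vs A and C vs B, from the fit of 12 libraries (black) and from the fit of 10 libraries without A1 and B1 (green), filled where the adjusted p is under 0.05. Points of Il2rb in B vs A lie at 0.86 with all libraries and at 2.16 without A1 and B1, and those of Il2rg lie near 0 in every comparison.

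Whether the change between D and C differed from that between B and A was tested directly, and no member passed, where 0.0% of genes did. No member had an unadjusted p under 0.05, as 15.0% of genes did, and limma-voom called 0. The difference of differences of Il2rb was 1.09 ± 0.75 on the log2 scale (adjusted p = 0.497). Without A1 and B1 none passed either, and Il7r, at 0.30 ± 0.12, had an adjusted p of 0.445. Over the 4 populations together, an F test in the fit of 12 libraries called no member, where 0.00998% of genes were called. Without A1 and B1 it called 6 members, where 9.63% of genes were. In the fit of 12 libraries it gave 5 members with an unadjusted p under 0.05, as for 21.7% of genes, and limma-voom called 0.

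Which receptors a cell can build also depends on the partners of these chains, given here as transcript levels of whole libraries and not as protein. The high-affinity IL-2 receptor adds the alpha chain Il2ra, which was low, at 2.43 ± 0.195 RPKM in D, 0.677 ± 0.113 RPKM in C, 1.85 ± 1.37 RPKM in B and 1.16 ± 1.10 RPKM in A (SD, n = 3 each), and ranged from 0.29 RPKM in B1 to 2.85 RPKM in B2. Il15ra averaged 2.64 RPKM over the 12 libraries. Il21r, another partner of the common gamma chain, lay between 94.5 and 107 RPKM in all libraries. The second chains of the IL-10 and interferon gamma receptors were even across libraries, Il10rb between 19.2 and 23.9 RPKM and Ifngr2 between 40.6 and 50.4 RPKM. Il27ra, which signals with gp130, was abundant, from 175 RPKM in A3 to 213 RPKM in B1.

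Of 45 other cytokine receptor chains, 20 were listed and tested, and 0 were called in the fit of 12 libraries in any of the 4 comparisons. In the fit of D and C alone, Il2ra rose by 1.32 ± 0.12 on the log2 scale (adjusted p = 0.000702) and Il18r1, of the IL-18 receptor, fell, at -0.58 ± 0.10 (adjusted p = 0.0122), the median of the 20 being 0.05 against 0.01 over all genes. The share of all genes called in that fit was 3.35% higher and 1.45% lower in D. Without A1 and B1, of the 20 chains 3 were higher and 1 lower in D than in C (all genes 5.05% and 2.58%), 5 and 1 in B than in A (6.66% and 4.26%), 5 and 1 in D than in A (6.08% and 2.76%), and 1 and 3 in C than in B (2.76% and 4.98%). Among 11 JAK and STAT genes the fit of D and C alone called Jak2, a kinase of the interferon gamma receptor (0.53 ± 0.07, adjusted p = 0.00354), and Stat5a, which IL-7 and IL-2 activate (0.33 ± 0.06, adjusted p = 0.0211), both higher in D, which is 2 of 11 where 3.35% of all genes were higher, with a median of 0.16. The fit of 12 libraries called 0 of the 11 in any comparison.

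Of 20 targets and feedback genes of STAT signalling that were tested, the fit of 12 libraries called Bcl3, higher in B than in A by 0.46 ± 0.09 on the log2 scale (adjusted p = 0.0415), and none in the other 3 comparisons. That fit called 2.23% of all genes between B and A, 0.569% higher in B, and 0.00998% in each of the other 3. Between D and C fitted alone, Bcl6, a repressor that directs follicular helper cells, rose by 1.45 ± 0.07 (adjusted p = 1.91e-05). Socs3, which binds gp130 and curbs its signal, fell, at -0.43 (adjusted p = 0.00449), as did Ccnd2 at -0.23 (adjusted p = 0.0229) and Gbp2 at -0.24 (adjusted p = 0.0295). These 1 higher and 3 lower of 20 stand beside 3.35% of all genes higher and 1.45% lower, and the median of the 20 was -0.12. Of 10 transcription factors known to bind Il7r or Il2rb, 0 were called in the fit of 12 libraries. Between D and C fitted alone Eomes, which with T-bet drives Il2rb in killer and memory cells, rose by 3.56 ± 0.13 (adjusted p = 7.97e-06) and Gfi1, a repressor of Il7r in CD8 T cells, by 1.08 (adjusted p = 0.000691), while Runx3 fell, at -0.35 (adjusted p = 0.0263), with a median of 0.11. The shares of all genes in that fit are those given above for D and C. Eomes was at 9.41 ± 0.739 RPKM in D and 0.344 ± 0.129 RPKM in C (SD, n = 3 each). It reached the mean of 0.5 RPKM needed for testing only through libraries where it was higher than in C. Of 15 cytokine ligands 3 were listed, and 0 were called in the fit of 12 libraries. Between D and C fitted alone Il21 rose by 1.62 ± 0.16 (adjusted p = 0.000763) and Lif by 1.13 ± 0.14 (adjusted p = 0.00284), where 3.35% of all genes were higher. Both averaged under 0.5 RPKM in C, at 0.314 RPKM for Il21 and 0.217 RPKM for Lif. Each reached the mean of 0.5 RPKM needed for testing only through libraries where it was higher. Their calls therefore say nothing of the ligands as a group.

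Over the 12 libraries the members formed a pattern of opposites, described here with no test since the libraries share mice and populations. Pearson's r of log2 levels was 0.97 between Il2rb and Il6st, -0.94 between Il7r and Il2rb, -0.95 between Il7r and Il6st, and 0.94 between Il4ra and Il6ra. Among all genes tested, those nearest to Il2rb were Myb (r = 0.996), Sox4 (0.995) and Eomes (0.994). Those nearest to Il7r were Hsd11b1 (0.984), Dpy19l1 (0.971) and Thy1 (0.971), and nearest to Il6st were Btbd11 (0.987), Nr4a3 (0.986) and Ephx1 (0.986). Il6ra lay nearest to Grap2 (0.987), App (0.982) and Emp3 (0.97), and Il4ra to Sit1 (0.976), Socs3 (0.958) and Npc2 (0.956). Likeness was weaker for Il2rg, led by Myl12b (0.938), for Il10ra, led by Ephb6 (0.929), and for Ifngr1, led by Atic (0.92).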

How the data were processed

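RNA was measured in 12 libraries, 4 sorted populations from each of 3 mice, per the labels. Cells were sorted into RLT, RNA was prepared with Quick-RNA MicroPrep, and libraries of polyadenylated RNA were made with SMART-seq v4 and NexteraXT, per the labels' protocols. The submitters' processing notes name STAR and the builds mm9 and mm10, so no coordinates were taken from the table. The sources used here name no counting tool, annotation or strand use. The authors deposited RPKM values with 1 column per library. RPKM multiplied by gene length and by a depth searched for each library came to whole reads (tolerance 0.1 read) in 100.0% of 7604 to 8497 values per library, and these reads served for depth and for limma-voom.

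Genes whose mean RPKM reached 0.5 were tested with limma 3.58.1 in R 4.3.3 (mean-variance trend) on log2(RPKM + 0.5), all 12 libraries together and no block. Fold changes on that scale understate those of low genes. Benjamini-Hochberg adjustment ran over all genes tested, separately for each of 6 comparisons. Tables and figures were made in Python 3.11.15 with numpy 2.4.6, pandas 2.3.3 and matplotlib 3.10.9. Depth recovery and the limma step were checked on simulated data.

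The members, gene lists and marker lists were chosen with earlier results of these data known. Other genes were named by rule: list members past the threshold, direct receptor partners, markers of other cells, and the 3 genes of highest Pearson's r with each member. Jchain, Cd74 and Mki67 were named for C3, and Hbb-bs for the mouse numbers, after their values were seen. Same-numbered libraries come from the same mouse per the labels, and the labelled mouse was fitted as a block. Levels of Hbb-bs, a red cell marker, did not follow these numbers across populations. The lowest library was that of mouse 1 in A (A1, 6.98 RPKM) and in B (B1). In C and D it was that of mouse 2 (C2, 4.78 RPKM, and D2, 12.7 RPKM). The remaining libraries held 79.1 (C1) to 111 RPKM (A2). The cause was not tested, and the block and differences by mouse hold only as far as the numbers do. Deviations from population means correlated at a mean of -0.072 within mice (-0.613 to 0.379, 1 of 18 pairs over 0.1) and 0.032 between mice.

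Alternatives were a pseudocount of 1, no filter, the replicate block, the 6 libraries compared alone, quantile normalization, leaving out A1 and B1, limma-voom, and each library left out. Removing a trend in GC content and length (found for 9846 genes), leaving out A1 and B1, and leaving out A1, B1 and C3 were chosen after seeing the data. RefSeq promoters were found for 6 of the 8 members. No promoter is printed for Il2rb and Il10ra.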

Additional observations from a re-analysis of the deposited data

How the results depend on the processing

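Over 32 results (8 receptor chains in 4 pairwise comparisons), 672 values were computed under other settings. Of these, 584 kept direction and side of the threshold, 75 passed where the fit of 12 libraries did not, 7 lost the call and 6 changed sign. All 7 lost calls were of Il10ra between B and A, given with its values in the report. The sign changes were of small differences, Il2rg between C and B (-0.01 after quantile normalization), Il2rg between B and A (0.01 without A2 or A3, 0.02 without B2 or B3; -0.05 to 0.02 over all libraries left out) and Il4ra between B and A (0.04 without B2; -0.14 to 0.04). The cause was not tested. The replicate block changed no other member's call.

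Counts of genes past the threshold depended on A1 and B1. Between D and C the count was 481 with the 6 libraries alone, 765 without A1 and B1, and 841 without A1, B1 and C3, and 1 to 398 with 1 library left out (288 without A1, 398 without B1). Between B and A it was 380, 1094 and 1638 under those settings, 2 with the replicate block, 3 with GC and length removed, and 0 to 461 with 1 library left out (0 without A2, B2 or B3, 2 without A3 or D2, 63 without C2, 68 without D3, 461 without C1 or C3). Between D and A it was 3, 886 and 1357, and 1 to 362 (362 without A1). Between C and B it was 0 with the 6 libraries alone (1030 at an unadjusted p under 0.05), 776 and 873, and 0 to 386 (386 without B1). The F test gave 965 and 1311 without those libraries, 2 by limma-voom, and 1 to 401 (154 without A1, 401 without B1, 113 without C1). The difference of steps gave 0 to 261 (261 without C1). Counting error was largest for Il10ra (150 to 302 reads) and for the low libraries of Il2rb (111 reads in A3).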
